A study of Mus musculus with 2 samples.

Results

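TRIM proteins, which most often combine a RING finger, a B-box zinc finger and a coiled coil, were examined in RAW264.7, a macrophage-like cell line of mouse origin, carrying the retroviral vector MSCV. The genes were those whose platform symbol is Trim followed by a number and an optional letter. For each gene the brightest probeset with a single gene symbol was used, judged by its log2 signal averaged over both arrays. By this rule 58 Trim genes were found among 18193 genes on the array. Of these, 10 were classed as interferon-linked from general knowledge that type I interferon induces them or their human counterparts: Trim12a, Trim12c, Trim14, Trim21, Trim25, Trim26, Trim30a, Trim30d, Trim34a and Trim56. The full list had 14 genes, with Trim30b, Trim30c, Trim34b and Trim38, which had no probeset of their own. The miR-155 group was infected with MSCV encoding the microRNA miR-155, and the empty-vector group with MSCV alone. Puromycin (7 µg/ml) served for selection in both groups, and clones were then grown by limiting dilution. RNA of 5 clones was pooled per group and hybridised to 1 Affymetrix array. With 1 array per group no p-value could be computed, and every value below describes these 2 arrays. The RNA pools do not show how clones differed among themselves.

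In a typical TRIM protein the RING finger binds an E2 enzyme and passes ubiquitin to a target, the coiled coil makes pairs, and the C-terminal end chooses the target. Many members with a PRY-SPRY end act in innate immunity: some bind viral capsids or antibody-coated virus, others put ubiquitin chains on sensors such as RIG-I. In macrophages a subset of the family is induced by type I interferon, and other members act on chromatin, the cytoskeleton or muscle proteins. The label of ubiquitin ligases covers the family loosely, since Trim14, Trim16, Trim29, Trim44 and Trim66 lack the RING finger.

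Because the manipulated agent is a microRNA, its mature form is shown first. It lies at chr16:84714143-84714165 (GRCm38.p6, plus strand), and the capitals mark the seed, bases 2 to 8, with which a microRNA pairs to its target mRNAs. Neither array measured this mature microRNA, and target sites in the Trim mRNAs were not analysed here.
mmu-miR-155-5p: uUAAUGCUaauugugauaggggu

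Promoters of interferon-induced genes often hold the interferon-stimulated response element (ISRE), to which IRF factors bind. The letters searched were GAAANNGAAA on both strands, so that a match on the opposite strand reads TTTCNNTTTC as printed. Each RefSeq promoter window (GRCm38.p6) held 250 bases before and 50 bases from the annotated start onward, with the start at base 251. Of 53 Trim genes with a window, 9 held the letters. They were found for 7 of the 13 genes on the full interferon-linked list that had a window (53.8%). They were also found for 2 of the 40 other Trim genes (5%), namely Trim2 and Trim5, named after the search was made. The share was 3.99% of all 27025 genes in the table. Of the genes with the letters, Trim12a, Trim12c, Trim30a, Trim30d, Trim34a and Trim5 are related neighbours on chromosome 7. They are therefore not independent counts. Trim14 was the 1 listed gene with no window used here. A match is a description of these letters and no proof of a bound site.

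The following stretches of 100 bases show the letters in capitals for 6 interferon-linked genes, so that the values below can be read beside them. Trim30a has 2 annotated starts, and the stretches printed for them are chr7:104465144-104465243 and chr7:104446076-104446175, both on the minus strand. The others are Trim30d (chr7:104507800-104507899, minus strand), Trim34a (chr7:104244407-104244506, plus strand), Trim12c (chr7:104353300-104353399, minus strand), Trim21 (chr7:102565433-102565532, minus strand) and Trim26 (chr17:36836946-36837045, plus strand). In Trim30a the match began at base 215 of the first window and base 253 of the second, close to the start site in both. The stretch TTTCTTTTTC is shared, letter for letter, by both Trim30a windows and by Trim30d. Trim21 and Trim26 each held a pair of matches that overlap by 4 bases, which in Trim26 lay farther upstream, from base 91.
Trim30a window 1: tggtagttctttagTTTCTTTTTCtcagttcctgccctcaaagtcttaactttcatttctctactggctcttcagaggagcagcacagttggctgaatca
Trim30a window 2: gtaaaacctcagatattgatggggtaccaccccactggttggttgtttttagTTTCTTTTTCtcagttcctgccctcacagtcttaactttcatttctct
Trim30d: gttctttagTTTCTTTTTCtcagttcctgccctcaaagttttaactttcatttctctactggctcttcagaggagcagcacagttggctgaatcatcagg
Trim34a: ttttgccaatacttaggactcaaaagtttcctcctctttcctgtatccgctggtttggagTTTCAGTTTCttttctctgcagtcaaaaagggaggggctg
Trim12c: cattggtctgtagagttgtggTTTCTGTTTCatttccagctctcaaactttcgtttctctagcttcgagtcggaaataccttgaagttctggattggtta
Trim21: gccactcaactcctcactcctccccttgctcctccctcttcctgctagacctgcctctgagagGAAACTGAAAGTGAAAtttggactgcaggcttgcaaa
Trim26: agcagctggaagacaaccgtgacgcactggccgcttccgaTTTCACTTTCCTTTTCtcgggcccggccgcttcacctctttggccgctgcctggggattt

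A related element joins a PU.1 site to an IRF site and was searched as GGAANNGAAA on both strands. It differs from the ISRE letters at its second base, so the same 10 bases cannot match both, but neighbouring matches can overlap. It was present for 3.16% of all genes in the table and for 8 of the 53 Trim genes with a window (15.1%). These were 4 of 13 genes on the full interferon-linked list (30.8%) and 4 of the 40 others (10%). In Trim5, Trim12a and Trim12c it overlapped the ISRE letters. The composite letters alone were held by Trim25, from base 247, and by Trim34b, Trim15, Trim40 and Trim44. Trim5, Trim12a, Trim12c and Trim34b are related neighbours on chromosome 7, so they are not independent counts.

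The arrays looked like macrophage RNA by defining markers. Of 10 macrophage markers, 9 reached the signal floor of 25.8 on both arrays, and the summed signal of all 10 was 20436 in the miR-155 pool and 20180 in the empty-vector pool. Within the list 2 markers were at least 1.5-fold higher, Cd14 (log2 ratio 1.26) and Fcgr1 (0.66), and 2 as much lower, Adgre1 (-0.71) and Spi1, which encodes PU.1 (-0.61). Mertk was the exception, below the floor on both arrays. Of 17 markers of T cells, B cells, stroma and epithelium, 1, the epithelial Epcam, reached the floor on both arrays, at 32.2 in the miR-155 pool and 37.6 in the empty-vector pool. The summed signals of those 4 lists ran from 19.8 to 54.0 in the miR-155 pool and from 12.4 to 54.9 in the empty-vector pool. The part of any of these markers in the Trim values was not tested.

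A signal floor was set at the geometric mean signal that splits all genes evenly, and 28 of the 58 Trim genes lay at or above it. The other 30 read below 25.8 on both arrays. Among all 9097 genes above the floor, 5.32% were at least 1.5-fold higher on the miR-155 array and 5.99% at least 1.5-fold lower. Of the 28 Trim genes, 2 were that much higher (7.14%), 3 that much lower (10.7%) and 23 lay within 1.5-fold. Of the 3 lower genes 2, Trim16 and Trim68, had a miR-155 reading below the floor. These shares are close to the background given the small number of genes. The family median log2 ratio, miR-155 over empty vector, was -0.0033, against -0.048 for all genes above the floor. At least 2-fold higher was 1 Trim gene, Trim30a, against 1.92% of all genes. By its readings as deposited 1, Trim16, was at least 2-fold lower, against 1.43% of all genes, but with that reading below the floor. No Trim gene with both readings above the floor was 2-fold lower. In RNA from whole cultures, fewer cells expressing a gene and less RNA per cell cannot be told apart.

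**Figure D1:**
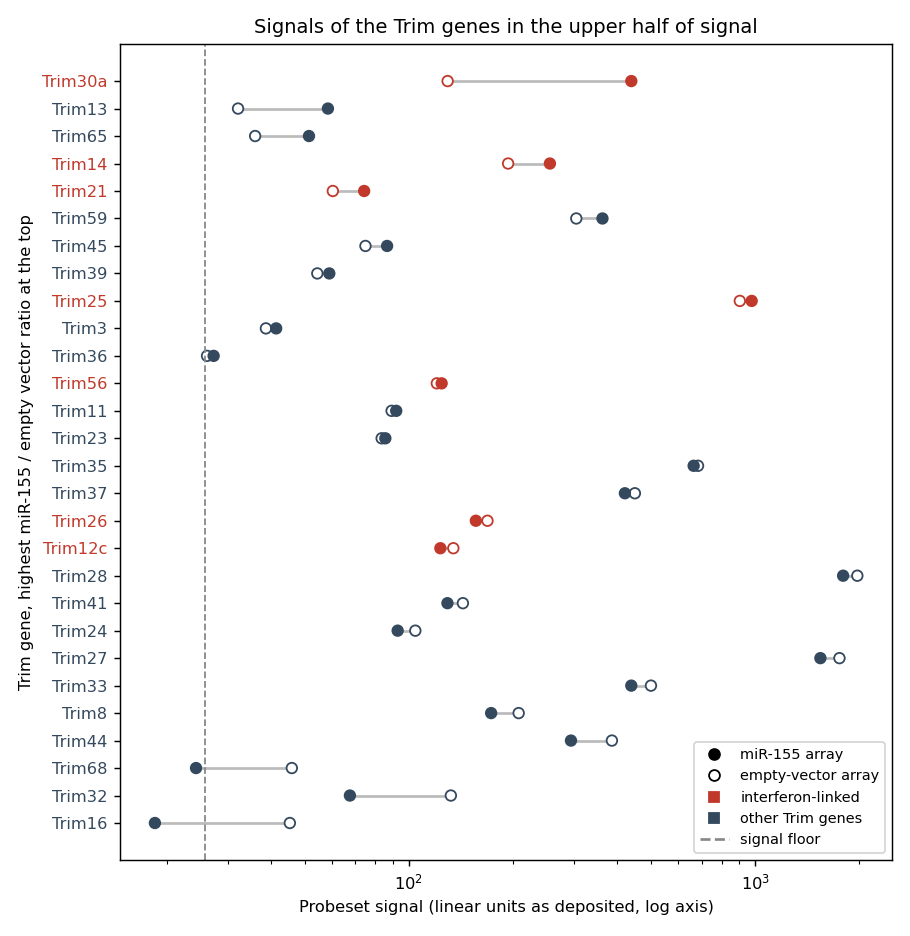
Probeset signal (log axis) of the 28 Trim genes at or above the signal floor of 25.8 (dashed line), with filled points for the miR-155 array, open points for the empty-vector array and red for interferon-linked genes. Trim30a has the widest gap on the higher side, at 439 in the miR-155 pool and 129 in the empty-vector pool, and most pairs of points lie close together.

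Trim30a was the single interferon-linked member that stood apart. It encodes a mouse TRIM protein that is induced by interferon and restrains Toll-like receptor signalling by promoting loss of the TAK1 partners TAB2 and TAB3. Its signal was 439 in the miR-155 pool, against 129 in the empty-vector pool, a 3.39-fold difference (log2 ratio 1.76). The local SD, a robust SD of log2 ratios taken over the 500 genes of most similar signal, was 0.24 here. The ratio lay 7.49 local SDs above the local median and ranked 37th highest among the 9097 genes. Its further probeset read 397 in the miR-155 pool and 124 in the empty-vector pool, a log2 ratio of 1.68. A probeset annotated to both Trim30d and Trim30a read 113 and 39.9 in the same order (log2 ratio 1.51, local SD 0.41). These genes are close relatives, and how far the Trim30a probesets also detect Trim30d was not tested.

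Trim30d, the next Trim gene beside Trim30a, was dim by its own probesets. The brighter read 9.30 in the miR-155 pool and 0.81 in the empty-vector pool, and the other 0.45 and 9.23, so that they went opposite ways below the floor. Trim34a, a further interferon-linked gene of the same chromosomal block, also stayed under the floor. Its 2 probesets read 21.0 and 17.2 in the miR-155 pool, against 4.40 and 1.34 in the empty-vector pool. Trim12a, a mouse relative of the primate capsid-binding factor TRIM5, read 2.14 in the miR-155 pool and 2.87 in the empty-vector pool. No ratio is given for these genes, since no detection limit is known at such signals.

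Trim12c, the sister gene of Trim12a, gave a split answer. The brightest probeset read 123 in the miR-155 pool and 134 in the empty-vector pool (log2 ratio -0.12, local SD 0.30). The second probeset read 47.1 in the miR-155 pool and 17.2 in the empty-vector pool, with the empty-vector reading under the floor. The 2 probesets therefore disagree on the direction of Trim12c.

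The remaining interferon-linked genes above the floor lay within 1.5-fold. Trim14, a RING-less adaptor of the mitochondrial antiviral signalling complex, read 255 in the miR-155 pool and 193 in the empty-vector pool (log2 ratio 0.40, local SD 0.25). Trim21, the cytosolic receptor for antibody-coated virus, read 74.3 in the miR-155 pool and 60.3 in the empty-vector pool (0.30, local SD 0.40), with 0.35 in its further probeset. Both lay higher on the miR-155 array, Trim14 at 1.74 local SDs above the local median and Trim21 at 0.85.

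Trim25, the ligase that acts on RIG-I and works with the antiviral protein ZAP, read 977 in the miR-155 pool and 903 in the empty-vector pool (log2 ratio 0.11, local SD 0.17). Its 3 probesets spanned 0.027 to 0.11. Trim56, which acts on the sensor adaptor STING, read 124 in the miR-155 pool and 120 in the empty-vector pool (0.046). Trim26, a ligase with reported action on nuclear IRF3, read 156 in the miR-155 pool and 169 in the empty-vector pool (-0.11), but 52.2 and 44.4 in its further probeset (0.23). For Trim25, Trim56 and Trim26 the 2 arrays thus differed by little more than 1 local SD or less.

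**Figure D2:**
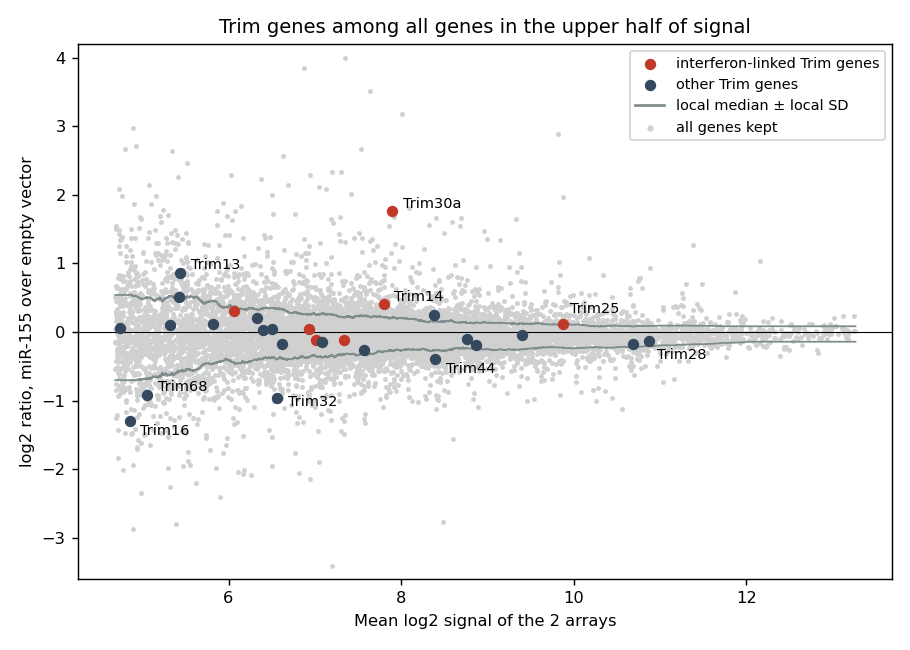
Log2 ratio of miR-155 over empty vector against mean log2 signal for 9097 genes (grey), with interferon-linked Trim genes in red, other Trim genes in dark blue and lines at the local median plus and minus 1 local SD. Trim30a lies at 1.76, and the other interferon-linked genes lie between -0.12 and 0.40. On the miR-155 array Trim16 and Trim68 read under the floor.

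Set side by side, 1 of the 7 interferon-linked Trim genes above the floor was at least 1.5-fold higher (14.3%) and 0 were as much lower. Among the 21 other Trim genes 1 was that much higher (4.76%) and 3 that much lower (14.3%). Of those 3, 2 had a miR-155 reading below the floor. Of all genes above the floor, 5.32% were that much higher and 5.99% that much lower, and these groups are small. The median log2 ratio was 0.11 for the interferon-linked genes and -0.096 for the others, a difference of 0.21. Leaving out Trim30a, which was decided with its value known, gave 0.080 and -0.096, a difference of 0.18. With the narrower list of Trim14, Trim21, Trim25 and the chromosome 7 genes the interferon-linked median was 0.30, and with a list widened by Trim5, Trim6, Trim31, Trim35 and Trim69 it was 0.080. No test of the difference exists with 1 array per group.

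The same 2 arrays gave a different picture for interferon genes outside the family. Of 25 such genes with a mean signal above the floor, 20 were at least 1.5-fold higher, 0 were as much lower, and the median log2 ratio was 0.95. The shares of all genes above the floor were 5.32% higher and 5.99% lower. Among the 20 higher genes, 3 (Oasl2, Ifit3 and Stat2) had an empty-vector reading under the floor. Like the other lists, this one was chosen when earlier results of these data were known. The largest ratios with both readings above the floor were those of Usp18 (1.54) and Irf7 (1.43), while Oasl2 read 65.7 in the miR-155 pool and 18.0 in the empty-vector pool. Trim30a, at 1.76, lay above both Usp18 and Irf7. By their brightest probesets the other 6 interferon-linked Trim genes, at -0.12 to 0.40, all lay below the median of that list. The lowest of them, Trim12c, is the gene whose second probeset read 47.1 in the miR-155 pool and 17.2 in the empty-vector pool. The ISRE letters stood in the windows of 7 of 13 Trim genes of the full interferon-linked list (53.8%). They also stood in those of 12 of the 25 listed interferon genes that had a window (48%). The share was 3.99% of all genes with a promoter window. Among Trim genes above the floor, the letters were present for Trim30a (1.76), Trim21 (0.30), Trim26 (-0.11) and Trim12c (-0.12). They were not in the windows of Trim25 (0.11) and Trim56 (0.046), and no window was used here for Trim14.

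**Figure D3:**
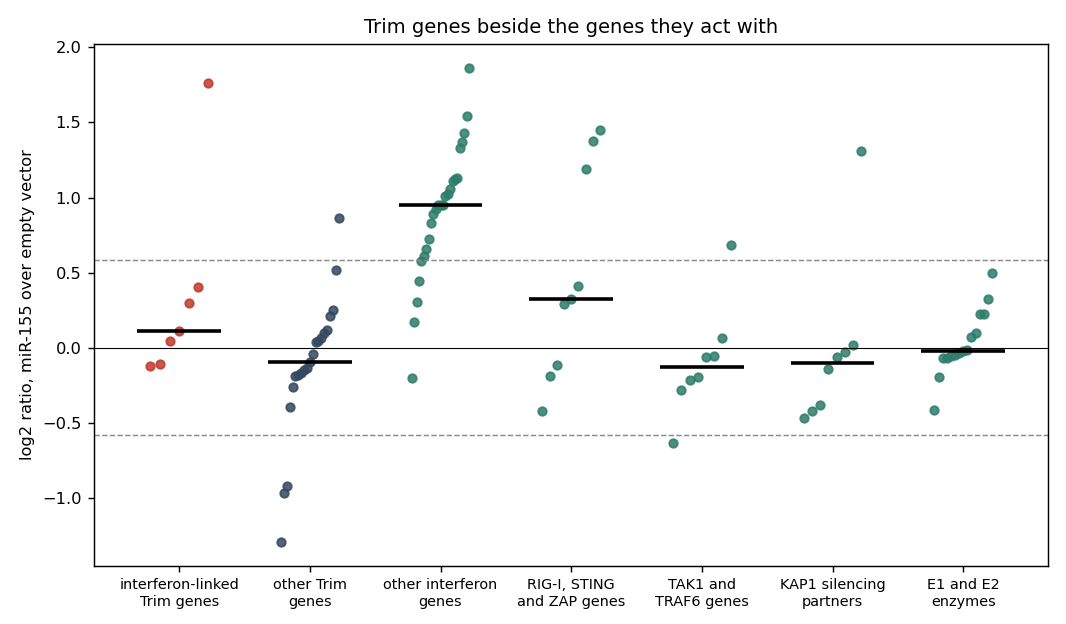
Log2 ratio of miR-155 over empty vector for each gene above the signal floor in 7 lists, with black bars at the list medians and dashed lines at 1.5-fold. The interferon-linked Trim genes have a median of 0.11 and the other Trim genes -0.096, against 0.95 for other interferon genes.

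Many of the interferon-linked genes are neighbours. In the RefSeq gene order on chromosome 7, 10 of the 18 genes from Trim6 to Trim30d are Trim genes, in the order Trim6, Trim34a, Trim5, Trim12a, Trim34b, Trim12c, Trim30b, Trim30c, Trim30a and Trim30d. Of this block, Trim30a and Trim12c reached the floor, with log2 ratios of 1.76 and -0.12. Trim6 read 11.3 in the miR-155 pool and 10.2 in the empty-vector pool, and Trim5 read 2.97 and 2.82 in the same order. Trim30b, Trim30c and Trim34b, like Trim38 elsewhere in the genome, had no probeset of their own, so no level or ratio is given for them; their promoter windows were searched. In all, 10 of 68 Trim symbols in the RefSeq table were in this position.

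Among the Trim genes without an interferon link, Trim13 was the highest. It encodes a ligase anchored in the endoplasmic reticulum that takes part in protein degradation there. Trim13 read 58.4 in the miR-155 pool, against 32.1 in the empty-vector pool, a 1.82-fold difference (log2 ratio 0.86), with a local SD of 0.54 at this low signal. Trim65, a ligase for the RNA sensor MDA5, read 51.5 in the miR-155 pool and 35.97 in the empty-vector pool (0.52, local SD 0.55). Both are single-probeset genes close to the floor, at 1.64 and 0.99 local SDs above the local median.

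Trim32 was the lowest member with both readings above the floor. It carries an NHL repeat end, and in humans its loss causes a limb-girdle muscular dystrophy. Its single probeset read 67.5 in the miR-155 pool, against 132 in the empty-vector pool, 1.96-fold lower (log2 ratio -0.97, local SD 0.37). Relative to the local median it lay at -2.55 local SDs. Its family relative Trim3, also with NHL repeats, read 41.4 in the miR-155 pool and 38.6 in the empty-vector pool (0.099), and Trim2 and Trim71 stayed below the floor on both arrays.

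Trim16 and Trim68 were also lower, each with a miR-155 reading under the floor. Trim16, a RING-less protein that takes part in autophagy of damaged lysosomes, read 18.5 in the miR-155 pool and 45.3 in the empty-vector pool. Its further probeset read 12.7 and 16.04 in the same order. Trim68, which lies on chromosome 7 near Trim21, read 24.3 in the miR-155 pool and 45.9 in the empty-vector pool. With the readings below the floor raised to it, both genes remained at least 1.5-fold lower, and the family count of 3 lower genes stood.

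Trim44, another RING-less member, with a ubiquitin-protease type zinc finger, gave probesets on both sides of 0. The brightest read 294 in the miR-155 pool and 386 in the empty-vector pool (log2 ratio -0.39, local SD 0.21). The others gave 0.25 and 0.046, so that no common direction was seen for Trim44.

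By their brightest probesets, all 3 chromatin members above the floor lay within 1.5-fold and within 1 local SD of the local median. Trim28, also called KAP1, the corepressor that KRAB zinc finger proteins recruit, read 1795 in the miR-155 pool and 1973 in the empty-vector pool (log2 ratio -0.14, local SD 0.15), with -0.36 in its further probeset. Its relatives Trim24 and Trim33, which read histone marks through a PHD finger and bromodomain, were at -0.17 (local SD 0.36) and -0.19 (local SD 0.20), although the further probeset of Trim33 gave 0.099. For comparison, the median of all genes above the floor was -0.048. The fourth member, Trim66, was below the floor on both arrays.

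The Trim genes above the floor that remain lay between -0.26 and 0.25 in log2 ratio. Trim8, a regulator of cytokine signalling, read 173 in the miR-155 pool and 207 in the empty-vector pool (-0.26), and its further probeset 31.5 and 56.3 (-0.84), which is past 1.5-fold. Trim59, a membrane-anchored member, read 362 in the miR-155 pool and 304 in the empty-vector pool (0.25), with 0.015 in its further probeset. Trim27, a repressor that also acts at endosomes, read 1543 in the miR-155 pool and 1752 in the empty-vector pool (-0.18), and its 4 probesets above the floor ran from -0.18 to 0.33.

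Trim37, which acts at centrosomes and peroxisomes, read 421 in the miR-155 pool and 449 in the empty-vector pool (-0.096). All 5 of its probesets were below 0, from -0.52 to -0.045. Trim35 read 664 in the miR-155 pool and 684 in the empty-vector pool (-0.042), but 0.26 in its further probeset. The last 6 were Trim45 (0.21), Trim39 (0.12), Trim36 (0.063), Trim11 (0.044), Trim23, which carries an ARF GTPase end (0.035), and Trim41 (-0.15).

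**Figure D4:**
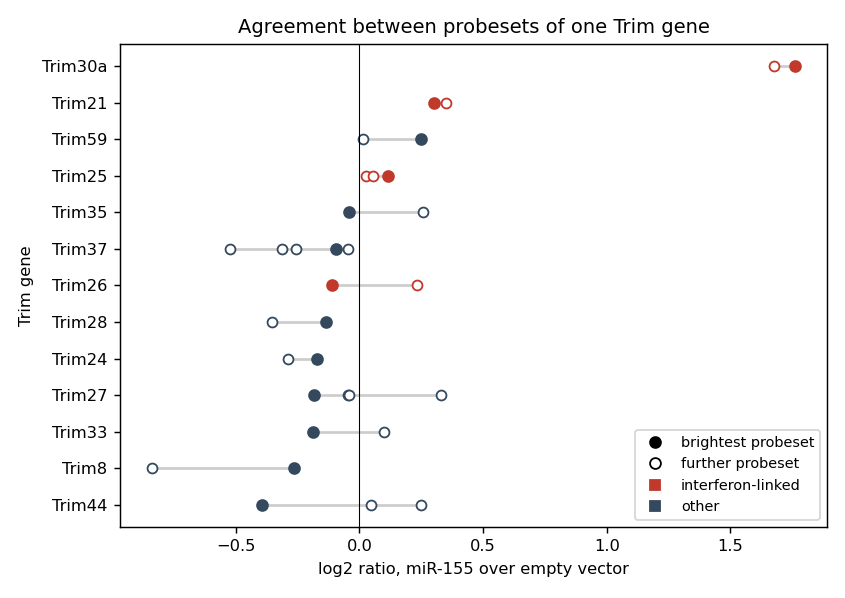
Log2 ratio of miR-155 over empty vector for every probeset at or above the floor on both arrays, for the 13 Trim genes with more than 1 such probeset (filled, brightest; open, further). The 2 probesets of Trim30a lie at 1.68 and 1.76, and 5 genes have probesets on both sides of 0.

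The range between probesets of 1 gene mixes technical error within these arrays with any difference in the transcripts they detect. These were not separated here. For the 13 Trim genes with more than 1 probeset above the floor on both arrays, the range between probesets had a median of 0.29 on the log2 scale. It was 0.087 for Trim30a, 0.051 for Trim21 and 0.087 for Trim25, and 0.64 for Trim44, the widest of the 13. For 8 genes all probesets lay on 1 side of 0, and for 5 (Trim26, Trim27, Trim33, Trim35 and Trim44) they lay on both. Of 26 Trim genes with both readings above the floor, 19 lay within 1 local SD of the local median (66.6% of all genes above the floor did so).

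Below the floor were 30 Trim genes, among them the muscle ligases Trim54, Trim63 and Trim72 and the brain-expressed Trim9, Trim46 and Trim67. Their highest readings were 21.0 in the miR-155 pool and 24.1 in the empty-vector pool. On the miR-155 array 10 of the 30 read higher and 20 lower. Of all genes with a mean signal below the floor, 46.1% read higher on that array. Just above the floor stood Trim36, at 27.3 in the miR-155 pool and 26.1 in the empty-vector pool, and just below it Trim2, at 18.9 and 15.7. No direction is taken from these dim readings, since no detection limit is known for them. Probesets of Trim9 went opposite ways, at 1.27 and 13.1 in the miR-155 pool, against 24.1 and 0.74 in the empty-vector pool. Those of Trim34a, given above, both read higher in the miR-155 pool.

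Genes of TRIM type with other names were few above the floor. Pml, a TRIM protein that builds nuclear bodies and is induced by interferon, read 60.0 in the miR-155 pool and 42.4 in the empty-vector pool (log2 ratio 0.50, local SD 0.50). Mefv, which encodes pyrin, and the microtubule-binding Mid1 and Mid2 stayed below the floor on both arrays.

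The genes that TRIM proteins act with gave mixed values. Each count for these partner lists stands beside 5.32% of all genes above the floor at least 1.5-fold higher and 5.99% as much lower. Of 9 genes of RIG-I, MDA5, STING and ZAP signalling, on which Trim25, Trim56 and Trim65 act, 3 were at least 1.5-fold higher and 0 as much lower, with a median log2 ratio of 0.33. Those 3 were the adaptor Sting1, at 302 in the miR-155 pool and 111 in the empty-vector pool (1.45), the helicase Dhx58 (1.37) and Ifih1, which encodes MDA5 (1.19). Ddx58, which encodes RIG-I itself, was at 0.29, and Zc3hav1, which encodes ZAP, at 0.33, both within 1.5-fold like Trim25 (0.11) and Trim56 (0.046). Of the 9 genes 6 lay above 0 and 3 below, the lowest being Irf3 at -0.42 (local SD 0.20), also within 1.5-fold.

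Of 8 genes of TAK1 and TRAF6 signalling, on which Trim30a acts, 1 was at least 1.5-fold higher and 1 as much lower, with a median of -0.13. The lower one was Tab2, a reported miR-155 target and a protein that Trim30a removes, at 633 in the miR-155 pool, against 983 in the empty-vector pool (log2 ratio -0.64, local SD 0.18). Tab3 was at -0.28, and the adaptor Ticam1, or TRIF, was the higher one, at 0.68 (local SD 0.53). The arrays measure mRNA, so the loss of TAB2 protein that Trim30a is known for was not measured.

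Of 8 partners of KAP1 silencing, 1 was at least 1.5-fold higher, the remodeller Chd3, at 72.5 in the miR-155 pool and 29.3 in the empty-vector pool (log2 ratio 1.31, local SD 0.53). The heterochromatin protein gene Cbx5 was at -0.47 and Cbx3 read 23.7 in the miR-155 pool and 31.7 in the empty-vector pool, around a list median of -0.10. None of 15 E1 and E2 enzymes, which hand ubiquitin to the ligases, differed by 1.5-fold, and their median was -0.024. The largest were Ube2l6, an E2 enzyme for the ubiquitin-like ISG15 (0.50), Ube2d1 (-0.41) and Ube2r2 (0.32).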

How the data were processed

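The authors deposited 45101 linear probeset intensities per array. Per the labels' protocols, total RNA was extracted with an RNeasy kit, RNA of 5 clones was pooled per group, and biotin labelling followed the manufacturer's procedures. How probes were summarised, corrected for background and scaled is not stated by the labels, and no detection calls were used here. The median signal was 14.1 on the miR-155 array and 15.4 on the empty-vector array.

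Probesets were named through the platform annotation. Of them 34945 had 1 gene symbol, 932 several and 9160 none listed, and 64 control probesets were left out. Updating symbols by Entrez identifier through the RefSeq table (GRCm38.p6) changed none. The log2 ratio is log2 of the miR-155 intensity minus log2 of the empty-vector intensity, with no offset. Genes in the upper 50% of mean log2 signal were kept, and 332 of these 9097 had a reading below the floor on 1 array. No ratio is printed for such genes. Local SDs are scaled median absolute deviations over the 500 genes nearest in signal. They describe array noise and any real differences, not the spread between cultures, and the number of arrays limits every value. The steps were tested on simulated data in Python 3.11.15 with numpy 2.4.6 and pandas 2.3.3.

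The Trim genes, the interferon-linked list (14 genes, 10 on the array) and the other lists were chosen with earlier results of these data known. Named were all Trim genes kept, every interferon-linked Trim gene on the array and the 3 largest ratios of each partner list. Trim2, Trim5, Trim6 and the other Trim genes below the floor were named outside that rule, after their values were seen. So were Ddx58, Zc3hav1 and Irf3 in the partner lists. Promoter windows and the mature microRNA are RefSeq sequences of GRCm38.p6, and 53 Trim genes had a window. The alternatives were other filters, offsets, scalings, probeset choices and list widths.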

Additional observations from a re-analysis of the deposited data

Results flagged for a closer look

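Each of these 3 readings comes from a probeset that was left out of the counts per gene and was at least 1.5-fold above the empty-vector level. The further Trim30a probeset read 397 in the miR-155 pool and 124 in the empty-vector pool. The probeset shared by Trim30d and Trim30a read 113 in the miR-155 pool and 39.9 in the empty-vector pool. The second Trim12c probeset read 47.1 in the miR-155 pool and 17.2 in the empty-vector pool, while the brightest Trim12c probeset was at a log2 ratio of -0.12. No explanation was tested for any of them.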

How the results depend on the processing

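No paired analysis was possible because each group has 1 array. The spread used to judge a list median is the median local SD divided by the square root of the number of genes. It was 0.10 for interferon-linked and 0.078 for other Trim genes. This spread is a rough yardstick for changes of setting, since it treats genes on 1 pair of arrays as independent. It does not measure the spread between cultures. With an offset of 16, the median log2 ratio of all probesets set to 0, quantile scaling, a loess correction, readings raised to the floor or the broad list, no list median moved by more than this spread and no count by more than 1.5 times. Raising readings to the floor altered only Trim16 and Trim68 among the Trim genes, and the broad list added only Trim35 above the floor. Both are therefore weak checks of the medians. In the upper 25% of signal, 1 Trim gene was at least 1.5-fold higher and 0 lower, against 2.42% and 2.09% of all genes. The interferon-linked median was then 0.40 over 3 genes and the difference of medians 0.54. With no filter the counts were 4 higher and 17 lower (3 higher among interferon-linked genes), against 17.1% and 21.2% of all genes, the median of the other Trim genes was -0.19 and the difference 0.39. An offset of 50 left 1 higher and 1 lower, against 2.25% and 2.15% of all genes. The mean of all probesets gave medians of 0.27 and -0.21, a difference of 0.48 and 2 higher interferon-linked genes, against 7.65% of all genes. The narrow list gave a median of 0.30 and a difference of 0.40. A further 2 alternatives were chosen after seeing the data. The next brightest probeset gave 1 Trim gene lower (6.97% of all genes) and 2 interferon-linked genes higher (4.54% of all genes). With it the interferon-linked median was 0.35 and the difference 0.39. Without Trim30a 1 Trim gene was higher and 0 of them interferon-linked, against 5.31% of all genes. These counts rest on fewer genes under the stricter filter and on dim readings with no filter. The next brightest probeset left 14 Trim genes, 5 of them interferon-linked, among 4115 genes. Averaging took in probesets below the floor, and leaving out Trim30a removed 1 higher gene by definition. For the others the cause was not tested. The ratio of Trim30a ran from 1.45 to 1.83 over 10 settings and that of Trim32 from -0.97 to -0.63 over 8, while Trim13 came within 1.5-fold with an offset of 50 (0.40). Trim12c turned to 0.66 with averaged probesets. Of 231 recomputed values of single genes, 216 moved by less than 1 local SD and 12 had the other sign, none of these in a gene past 1.5-fold. A changed filter or readings raised to the floor cannot alter these ratios, and setting the median to 0 shifts every gene alike. Part of the 216 was therefore fixed in advance.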

Other observations

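Probesets annotated to several genes carry values for Trim members that have no probeset of their own. A pair of probesets shared by Trim34b and Trim34a read 21.4 and 9.97 in the miR-155 pool, against 6.05 and 16.2 in the empty-vector pool, so they went opposite ways below the floor. The probeset shared by Gm38525 and Trim30b read 0.55 in the miR-155 pool and 10.0 in the empty-vector pool. The probeset shared by H2aw and Trim17 read 57.0 in the miR-155 pool and 56.6 in the empty-vector pool, above the floor on both arrays, whereas the brightest probeset of Trim17 alone read 8.80 and 16.5 in the same order.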
